A study of Mus musculus with 6 samples.

Results

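The 10 genes described here make up the core of the PPAR, PGC-1 and ERR network of the heart: the receptors *Ppara*, *Ppard* and *Pparg*, the coactivators *Ppargc1a* and *Ppargc1b*, the partner receptor *Rxra*, the receptors *Esrra*, *Esrrb* and *Esrrg*, and the coregulator *Lpin1*. They were chosen by name, with earlier results of these data known. Every probe other than a control whose gene name on the array is exactly one of the 10 was taken. This gave 16 probes on 27 spots, out of 55681 probes on 59305 spots and 36163 gene names. All 16 probes were well above background on all 6 arrays, and all 16 were tested. RNA came from the hearts of male C57BL/6 mice that were given a high fat diet (HFD, 60% of kcal from fat) or standard chow (normal diet, ND) from 4 weeks of age for 4 months. There were 3 HFD and 3 ND hearts, 1 array each, and no genetic change or treatment other than the diet is named for either group. The labels number the hearts 1 to 3 within a diet and do not say whether each was 1 animal or a pool, so that the p-values below measure the spread between these 6 RNA samples.

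PPAR proteins are nuclear receptors that bind fatty acids and their derivatives. Paired with a retinoid X receptor, they switch on genes of fatty acid uptake, storage and oxidation. The ERR proteins are related orphan receptors that act on genes of oxidative phosphorylation and the citric acid cycle. The PGC-1 coactivators, encoded by *Ppargc1a* and *Ppargc1b*, bind both kinds of receptor and raise their output, and the heart relies on this network for the energy it draws from fat. Lipin 1, the product of *Lpin1*, is a phosphatidate phosphatase that also works in the nucleus with PPARα and PGC-1α.

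A level below is the log2 of a probe's intensity after the 75th percentile of its own array was subtracted, so that 0 is the brightness of that percentile and 1 unit is a doubling. Levels of different probes were not compared, because probes differ in how they bind. The hearts differed in more than diet. HFD 2 stood apart with a mean level of 1.22 over 4 genes of atrial muscle, against 4.71 to 7.88 in the other 5 hearts, and of 0.27 over 9 genes of white adipocytes, against 1.53 to 2.31. The 9 cardiomyocyte genes were at 8.41 to 8.44 in ND and 8.22 to 8.49 in HFD hearts, so that the defining genes of the labelled tissue were bright in every heart. All 6 arrays shared 1 slide and 1 scan. Row 1 of the slide held HFD 1 and HFD 2, and row 2 held HFD 3 and the ND hearts. A fit with the row as a term therefore compares HFD 3 alone with the ND hearts.

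The clearest differences among the regulators were lower *Lpin1* and higher *Ppargc1b* in HFD hearts. *Esrrb* and *Ppard* were lower by less. No probe of the 10 genes passed adjustment over the 27582 probes tested, where 4 probes, or 0.0145%, did (limma with Benjamini-Hochberg adjustment, adjusted p below 0.05). Before adjustment, 5 of the 16 probes had a limma p below 0.05. These were 1 probe higher in HFD, of *Ppargc1b*, and 4 probes lower, of *Lpin1*, *Esrrb* and *Ppard*. Over all probes tested, 5.24% were higher and 6.64% lower at that threshold, 11.9% in all. The same 5 probes were the ones with no overlap between the diets, and over all probes tested 7.91% lay wholly higher and 11.1% wholly lower in HFD. The median log2 fold change over the 16 probes was −0.08, and over all probes it was −0.01. In RNA from whole heart tissue, fewer cells of a type and less RNA per cell cannot be told apart.

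**Figure D1:**
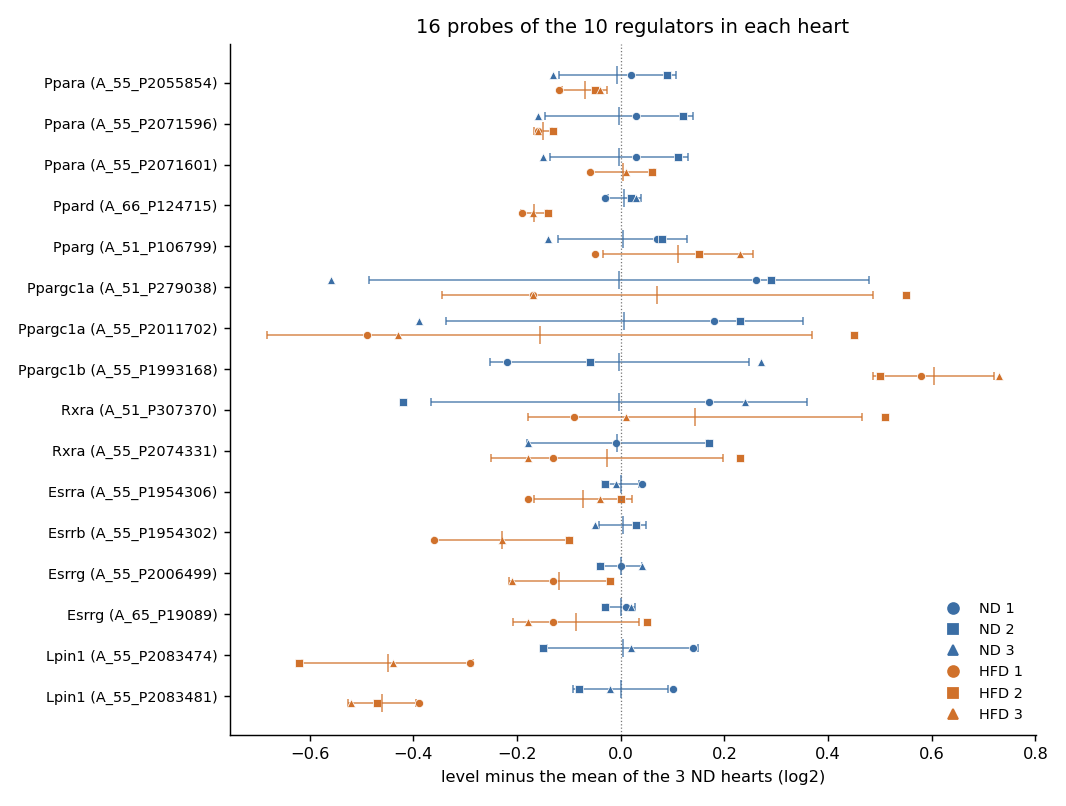
Level of each of the 16 probes in each heart, as the difference from the mean of the 3 ND hearts (log2, x axis). Blue symbols are ND and orange symbols HFD hearts, the vertical tick is the group mean, and the bar is 1 SD to each side (n = 3). The diets do not overlap for both *Lpin1* probes, *Ppard* and *Esrrb* (HFD lower) and *Ppargc1b* (HFD higher).

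*Lpin1* was read by 2 probes designed on transcript NM_001130412, both on the minus strand of chromosome 12 of mm9. A_55_P2083481 covers 16543695 to 16543754 and starts at base 4346 of the transcript. A_55_P2083474 covers 16542515 to 16542574 and starts at base 5526. Where the probes lie relative to the coding sequence was not analysed here. Since the results turn most on *Lpin1*, the first 30 of the 60 bases of each are shown, 5′ to 3′.
A_55_P2083481: aggtctcatgtggtccacatagttcacagg
A_55_P2083474: attatccatgaatgaggcctaatgacagtg

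Probe A_55_P2083481 of *Lpin1* was at 3.82, 3.64 and 3.70 in ND 1, ND 2 and ND 3, and at 3.33, 3.25 and 3.20 in HFD 1, HFD 2 and HFD 3. Every HFD heart was below every ND heart. The mean level was 3.72 ± 0.0904 (SD, n = 3) in ND and 3.26 ± 0.0608 in HFD, and the log2 fold change of −0.46 (SE 0.08) puts the HFD hearts at 72.8% of ND, with a 95% confidence interval from 63.7% to 83.1%. The limma p was 0.00107 before and 0.149 after Benjamini-Hochberg adjustment, rank 198 of all probes tested.

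Probe A_55_P2083474 of *Lpin1* is dim, with intensities of 116, 94.1 and 104 in the ND hearts and 91.0, 63.9 and 86.5 in HFD hearts before scaling. Its levels were −2.07, −2.36 and −2.19 in the ND hearts and −2.50, −2.83 and −2.65 in HFD hearts, again with no overlap. The log2 fold change was −0.45 (SE 0.12), or 73.1% of ND (95% confidence interval 59.8% to 89.2%), with a limma p of 0.00850 and an adjusted p of 0.271. The changes of the 2 probes differed by 0.01 (two-sided exact permutation test over 6 hearts, p = 1). With normexp background correction A_55_P2083474 was at −0.28 and A_55_P2083481 at −0.46, and the changes differed by 0.18 (exact permutation p = 0.1, the smallest possible). Without HFD 2 the difference of *Lpin1* was −0.46 at A_55_P2083481 and −0.37 at A_55_P2083474. With the row of the slide as a term, a fit that rests on HFD 3 alone against the ND hearts, it was −0.52 and −0.44.

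The stretch just before the start of *Lpin1* holds 1 copy of the half-site bound by PPAR, RXR and ERR proteins. It is shown because *Lpin1* is the regulator with the lowest p. The 250 bases lie on the minus strand of GRCm38.p6, chr12:16610967-16611216, and come from RefSeq, with the half-site in capitals.
*Lpin1* promoter: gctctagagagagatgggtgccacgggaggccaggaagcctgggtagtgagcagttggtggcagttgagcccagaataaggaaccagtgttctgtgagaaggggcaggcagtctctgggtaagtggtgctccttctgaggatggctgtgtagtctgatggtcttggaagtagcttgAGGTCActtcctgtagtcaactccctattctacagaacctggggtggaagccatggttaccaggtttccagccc

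The letters AGGTCA were searched on both strands from 250 bases before to 50 bases after each gene start. They were found in 16.3% of 32851 windows, and in 4 of the 16 windows of the regulators. Counted by gene, 4900 of the 27025 genes with a window had a match. The regulators were not compared with all genes by a test. Of the 10 regulators, 9 had a window, and 3 had a match: *Lpin1* at −74, *Pparg* at −28 and at −9 of different starts, and *Rxra* at −87 and −48. The full DR1 element AGGTCANAGGTCA, in which 2 half-sites follow each other with 1 base between, was in 0.0396% of all windows and in 0 of the 16 windows of the regulators. The longer half-site TNAAGGTCA, which contains the short one and is known from ERR proteins, was in 1.28% of all windows and also in 0 of the 16. *Esrrb* and *Ppard* had no match to any of the 3 motifs in their windows, and *Ppargc1b* was not searched.

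Of the PPAR receptors, *Ppara* encodes the form that dominates fatty acid oxidation in heart and liver. It was read by 3 probes on transcript NM_011144, on the plus strand of chromosome 15 of mm9, from 85632110 to 85632169, from 85632534 to 85632593 and from 85637193 to 85637252. They start at bases 2273, 2697 and 7356 of the transcript. Their first 30 bases are given since the 3 probes did not read quite the same difference.
A_55_P2055854: ctttgaaaacctacaagtcaaggtgtggcc
A_55_P2071601: aaatgctcctctaggcccctcctttggcag
A_55_P2071596: cctgtaagctgatgaatgtaaagagttaat

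Probe A_55_P2055854 of *Ppara* was at 4.46, 4.53 and 4.31 in the ND hearts and at 4.32, 4.39 and 4.40 in HFD hearts, a log2 fold change of −0.06 (SE 0.08, limma p of 0.471). Probe A_55_P2071601 was at 2.12, 2.20 and 1.94 in the ND hearts and at 2.03, 2.15 and 2.10 in HFD hearts, a change of 0.01 (SE 0.09, limma p of 0.947). Probe A_55_P2071596 was at 2.87, 2.96 and 2.68 in the ND hearts and at 2.68, 2.71 and 2.68 in HFD hearts, a change of −0.15 (SE 0.09, limma p of 0.154). The diets overlapped at all 3 probes, and ND 3 was the lowest ND heart at each. The 95% confidence intervals, at 83.2% to 110% of ND, 86.1% to 117% and 77.7% to 105%, leave out a doubling or halving of *Ppara*. Without ND 3 the change of A_55_P2071596 was −0.22 with an unadjusted p of 0.0346. This probe differed from A_55_P2071601 by −0.15 in its change, and in that difference every HFD heart was below every ND heart, with an SD of 0.00643 in ND and 0.0443 in HFD. The two-sided exact permutation p was 0.1, the smallest that 3 hearts against 3 allow, and 0.175 after adjustment over the 7 pairs of probes of 1 gene.

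*Ppard* encodes PPARδ, the form found in most tissues and also abundant in heart muscle. Its probe A_66_P124715 lies on the plus strand of chromosome 17 of mm9, from 28438298 to 28438357. The levels were 2.44, 2.49 and 2.50 in the ND hearts and 2.28, 2.33 and 2.30 in HFD hearts. Every HFD heart was lower, and the hearts of a diet lay close together, with an SD of 0.0304 and 0.0221. Only 0.86% of the probes well above background on all 6 arrays had a smaller spread within the groups. The log2 fold change of −0.17 (SE 0.06) puts HFD at 88.7% of ND (95% confidence interval 79.9% to 98.5%), with a limma p of 0.0309 and an adjusted p of 0.373. The p was 0.0445 without HFD 2 and between 0.0604 and 0.0995 when any other heart was left out. The fold change stayed at −0.19 to −0.16 with a heart left out. With the slide row as a term, which leaves HFD 3 alone against the ND hearts, the fold change was −0.18.

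*Pparg* encodes PPARγ, the master regulator of fat cells, which heart muscle holds at lower levels. Its probe A_51_P106799 lies on chromosome 6 of mm9, plus strand, from 115440213 to 115440272, and was printed on 10 spots of each array. It was at 2.91, 2.92 and 2.70 in the ND hearts and at 2.79, 2.99 and 3.07 in HFD hearts, with a log2 fold change of 0.11 (SE 0.11, limma p of 0.345) and a 95% confidence interval from 90.1% to 129% of ND. The diets overlapped. The 10 spots of an array had an SD of 0.0242 to 0.0497, against 0.121 between ND hearts and 0.142 between HFD hearts. Repeat spots show the noise within an array only, and the noise between arrays cannot be told apart from differences between hearts.

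**Figure D2:**
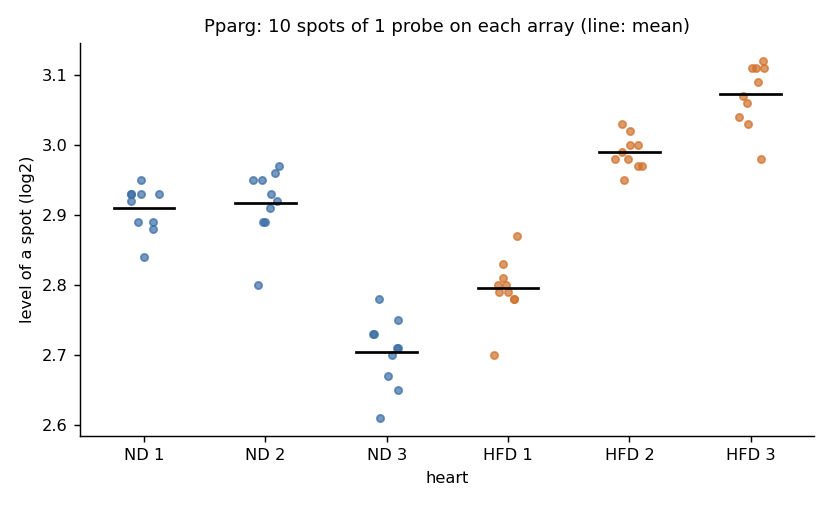
Level (log2, y axis) of the 10 spots of the *Pparg* probe on the array of each heart (x axis). Each point is a spot and the black line its mean, blue for ND and orange for HFD, and the spots of a heart lie closer together (SD 0.0242 to 0.0497) than the hearts of a diet (0.121 and 0.142).

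*Rxra* encodes RXRα, a partner with which PPAR proteins bind DNA. Both probes, on the plus strand of chromosome 2 of mm9 from 27615316 to 27615375 and from 27618781 to 27618839, were dim, with intensities of 73.7 to 132 for A_51_P307370 and 59 to 76 for A_55_P2074331. A_51_P307370 was at −2.12, −2.71 and −2.05 in the ND hearts and at −2.38, −1.78 and −2.28 in HFD hearts, a log2 fold change of 0.15 (SE 0.24, limma p of 0.555). A_55_P2074331 was at −2.85, −2.67 and −3.02 in the ND hearts and at −2.97, −2.61 and −3.02 in HFD hearts, a change of −0.03 (SE 0.15, limma p of 0.868). The diets overlapped at both, and the 2 probes did not rank the hearts alike: ND 2 was the lowest heart by the first and the second highest by the other. The intervals, 74.2% to 165% and 76.8% to 126% of ND, are wider than for most of the other regulators.

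Of the coactivators, *Ppargc1a* encodes PGC-1α, the one best known for its response to fasting, cold and exercise. Its 2 probes on transcript NM_008904 are on the minus strand of chromosome 5 of mm9, A_51_P279038 from 51848928 to 51848987 and A_55_P2011702 from 51846926 to 51846985. They start at bases 2964 and 4966 of the transcript, so that A_55_P2011702 is nearer the 3′ end. Their first 30 bases are shown because these 2 probes set the same hearts high and the same hearts low.
A_51_P279038: ccccttcaaatggcagcatttccatgaaga
A_55_P2011702: aggccaatgcagctaattttgacagctgca

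A_51_P279038 of *Ppargc1a* was at 4.96, 4.99 and 4.14 in the ND hearts and at 4.53, 5.25 and 4.53 in HFD hearts. A_55_P2011702 was at 2.14, 2.19 and 1.57 in the ND hearts and at 2.41 in HFD 2, against 1.47 and 1.53 in HFD 1 and HFD 3. At both probes, ND 1, ND 2 and HFD 2 were high, and ND 3, HFD 1 and HFD 3 were low. The log2 fold changes were 0.07 (SE 0.30, limma p of 0.823) and −0.16 (SE 0.30, limma p of 0.619), with intervals of 62.8% to 176% and 53.6% to 150% of ND. The spread within the groups was larger than for 94.4% and 94.3%, respectively, of the probes well above background on all 6 arrays. Without HFD 2 the changes were −0.17 and −0.46 (limma p of 0.589 and 0.0824).

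The split of the hearts by *Ppargc1a* did not follow diet or slide row. The 3 hearts with high *Ppargc1a* were those with the lowest mean level of the 4 atrial muscle genes *Myl7*, *Myl4*, *Nppa* and *Sln*. This mean was 4.71, 6.00 and 1.22 in ND 1, ND 2 and HFD 2, and 7.54, 7.88 and 6.88 in ND 3, HFD 1 and HFD 3. With 6 hearts in separate clusters, no correlation was computed. Some other lists split the hearts in the same way. The fibroblast mean was 4.62, 4.6 and 4.32 in ND 1, ND 2 and HFD 2, and 4.66, 4.77 and 4.75 in ND 3, HFD 1 and HFD 3. In the same order, the clock gene mean was 1.37, 1.34 and 1.23 against 1.22, 1.13 and 1.1. The mean of PGC-1 and ERR target genes was 7.85, 7.85 and 7.89 against 7.82, 7.74 and 7.7. Lists such as white adipocytes and red cells did not split so. The part of atrial tissue, or of any other list, in the level of *Ppargc1a* was not tested.

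**Figure D3:**
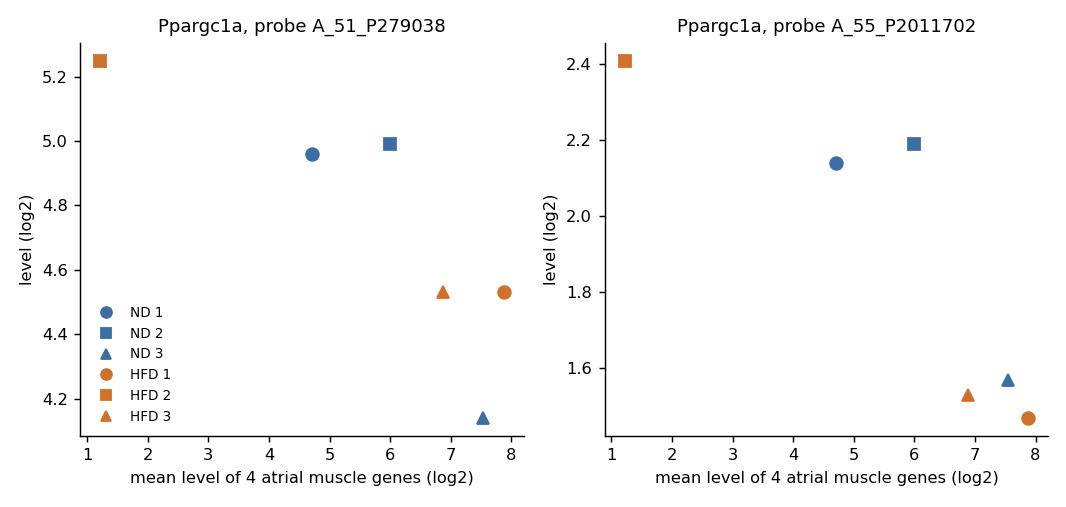
Level of *Ppargc1a* (log2, y axes) at A_51_P279038 (left) and A_55_P2011702 (right) against the mean level of 4 atrial muscle genes in the same heart (log2, x axes). Each symbol is a heart, blue for ND and orange for HFD, and at both probes ND 1, ND 2 and HFD 2, with the lowest atrial levels, lie above ND 3, HFD 1 and HFD 3.

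*Ppargc1b* encodes PGC-1β, the close relative of PGC-1α. Its probe A_55_P1993168, on transcript NM_133249, lies on the minus strand of chromosome 18 of mm9 from 61458222 to 61458281. The level was −1.01, −0.85 and −0.52 in the ND hearts and −0.21, −0.29 and −0.06 in HFD hearts. Every HFD heart was above every ND heart, and ND 3 was the ND heart nearest to them. The mean was −0.79 ± 0.249 (SD, n = 3) in the ND hearts and −0.19 ± 0.115 in HFD. The log2 fold change of 0.60 (SE 0.14) puts HFD at 152% of ND (95% confidence interval 119% to 193%), with a limma p of 0.00544 and an adjusted p of 0.249. Without HFD 2 it was 0.65 (limma p of 0.0115). With the slide row as a term, which leaves HFD 3 alone against the ND hearts, the change was 0.73.

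Of the estrogen-related receptors, *Esrra* encodes ERRα and *Esrrg* ERRγ, the forms best known for driving mitochondrial genes in heart. *Esrra* probe A_55_P1954306 (chromosome 19 of mm9, 6985503 to 6985562, minus strand) was at 5.99, 5.92 and 5.94 in the ND hearts and at 5.77, 5.95 and 5.91 in HFD hearts. The log2 fold change was −0.08 (SE 0.08, limma p of 0.343), with a 95% confidence interval from 83.3% to 108% of ND. HFD 1 alone lay clearly below the other hearts, and without it the change was −0.02.

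The 2 *Esrrg* probes are neighbours on the plus strand of chromosome 1 of mm9, A_55_P2006499 from 190038192 to 190038251 and A_65_P19089 from 190038384 to 190038443. A_55_P2006499 was at 2.04, 2.0 and 2.08 in the ND hearts and at 1.91, 2.02 and 1.83 in HFD hearts, with a change of −0.12 (SE 0.08, limma p of 0.163). A_65_P19089 was at 2.19, 2.15 and 2.20 in the ND hearts and at 2.05, 2.23 and 2.0 in HFD hearts, with a change of −0.08 (SE 0.08, limma p of 0.35). HFD 1 and HFD 3 were below all ND hearts at both probes, and HFD 2 was not. Without HFD 2 the changes were −0.17 and −0.15 (limma p of 0.0708 and 0.0806).

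*Esrrb* encodes ERRβ, better known from stem cells and the inner ear. Its probe A_55_P1954302 (chromosome 12 of mm9, 87862509 to 87862568, plus strand) was at 3.64, 3.64 and 3.56 in the ND hearts and at 3.25, 3.51 and 3.38 in HFD hearts. The diets did not overlap, though HFD 2 came within a small step of ND 3. The log2 fold change of −0.24 (SE 0.09) puts HFD at 84.8% of ND (95% confidence interval 73.0% to 98.4%), with a limma p of 0.0349 and an adjusted p of 0.387. The p was 0.0139 without HFD 2 and between 0.0521 and 0.0974 when any other heart was left out. The fold change was −0.30 to −0.17 with a heart left out. With the slide row as a term, which leaves HFD 3 alone against the ND hearts, the fold change was −0.24.

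**Figure D4:**
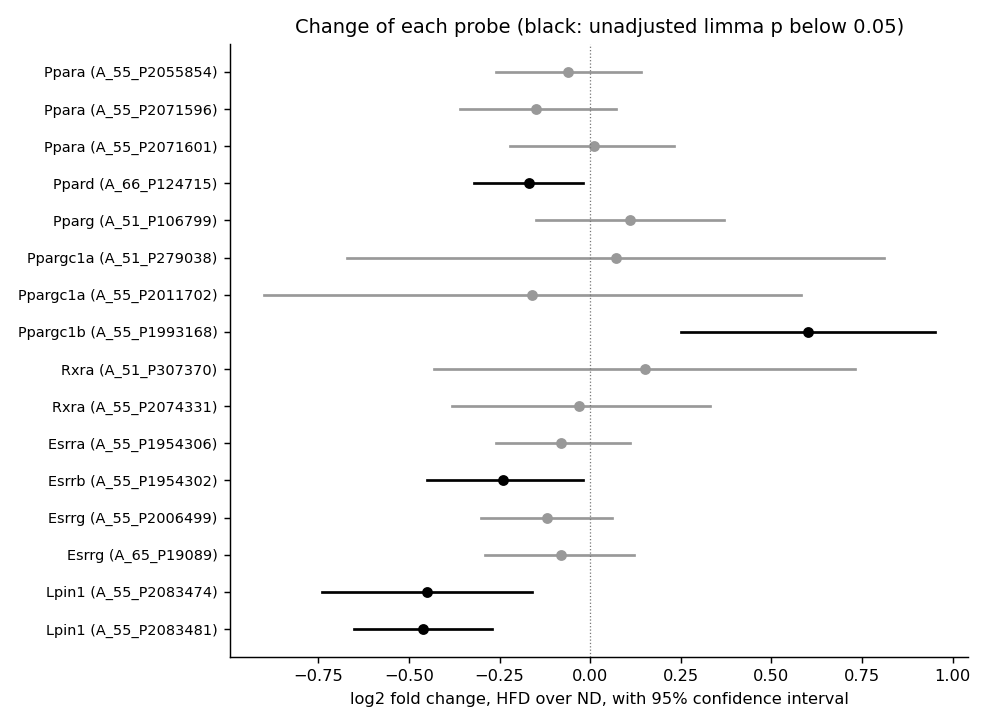
Log2 fold change of HFD over ND (x axis) with its 95% confidence interval for each of the 16 probes, from limma over 3 hearts a diet. Black marks the 5 probes with an unadjusted p below 0.05 and grey the other 11, and the widest intervals are those of *Ppargc1a*.

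The genes around the regulators were described from 3 lists, each gene by its probe of highest mean level. No gene of the 3 lists passed adjustment over all probes (limma with Benjamini-Hochberg adjustment). Of 36 partners and modulators tested, 1 was higher and 3 were lower at an unadjusted p below 0.05, and the median log2 fold change was −0.04. *Mapk14*, which encodes the kinase p38α that phosphorylates PGC-1α, was at 4.07, 4.11 and 4.13 in the ND hearts and at 4.34, 4.33 and 4.45 in HFD hearts (change 0.27, SE 0.07, limma p of 0.00693, adjusted p = 0.259). *Lpin3*, a relative of *Lpin1*, was at 1.15, 0.95 and 0.89 in the ND hearts and at 0.41, 0.70 and 0.59 in HFD hearts (change −0.43, SE 0.11, limma p of 0.00797, adjusted p = 0.265). The diets did not overlap for either gene. *Sirt3*, a mitochondrial deacetylase, differed by −0.19 (limma p of 0.0321, adjusted p = 0.376) and *Tfb1m*, a mitochondrial ribosomal RNA methyltransferase, by −0.18 (limma p of 0.0403, adjusted p = 0.402). *Thra*, a thyroid hormone receptor, was at 0.22 (limma p of 0.0509, adjusted p = 0.424) and *2310042D19Rik* at −0.17 (limma p of 0.0748, adjusted p = 0.471). *Lpin2*, the remaining lipin, was at 0.22 (limma p of 0.166, adjusted p = 0.601). The other RXR genes, *Rxrb* and *Rxrg*, were at −0.10 (limma p of 0.321, adjusted p = 0.725) and −0.03 (limma p of 0.709, adjusted p = 0.913), and *Pprc1*, the third gene of the PGC-1 family, at −0.04 (limma p of 0.722, adjusted p = 0.919).

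Of 32 PPAR target genes tested, 17 were higher and 0 lower at an unadjusted p below 0.05, beside 5.24% and 6.64% of all probes, and the median log2 fold change was 0.28. Like the other lists, this one was chosen with earlier results of these data known. It takes 1 probe per gene, the brightest, while the shares are over every probe tested. *Acot2* and *Acot1*, which split fatty acyl-CoA in mitochondria and cytosol, differed by 1.11 (SE 0.17, limma p of 0.000551, adjusted p = 0.129) and 1.56 (SE 0.29, limma p of 0.00173, adjusted p = 0.17). *Slc27a1*, a fatty acid transporter, differed by 0.52 (SE 0.08, limma p of 0.000836, adjusted p = 0.144), and *Slc25a20*, the mitochondrial carnitine carrier, by 0.44 (SE 0.07, limma p of 0.00105, adjusted p = 0.149). *Pex11a*, a peroxisome protein, differed by 0.67 (SE 0.12, limma p of 0.00143, adjusted p = 0.162). *Acot1* and *Acot2* are close copies of each other, and their probes may share signal. For each of these 5 genes every HFD heart was above every ND heart.

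Among the PPAR target genes that did not reach that threshold, *Pdk4*, which restrains glucose oxidation, was at 0.60 (limma p of 0.0771, adjusted p = 0.476), *Cd36*, a fatty acid receptor, at 0.25 (limma p of 0.0801, adjusted p = 0.481), and *Angptl4*, an inhibitor of lipoprotein lipase, at −0.22 (limma p of 0.731, adjusted p = 0.921). These 3 are named because they are well known targets, with their values in view. *Lpl*, named after its values were seen, was at 8.68, 8.65 and 8.62 in the ND hearts and at 8.29, 8.60 and 8.36 in HFD hearts. Its change was −0.23 (SE 0.1, limma p of 0.0529, adjusted p = 0.428). Of the 32 target genes, 18 lay wholly higher and 1, *Lpl*, wholly lower in HFD, beside 7.91% and 11.1% of all probes. Without HFD 2, 17 genes were higher and 1 lower, with a median of 0.22. With the slide row as a term, which leaves HFD 3 alone against the ND hearts, the median was 0.35. The target genes and the PPAR receptor genes were measured in the same hearts. The log2 fold changes of the PPAR probes lay between −0.17 and 0.11, and the difference between the receptors and their targets was not tested. Other lists also differed between the diets at an unadjusted p below 0.05: 10 of 13 immediate early genes were higher (mean level −0.16 to 0.56 in ND, 0.89 to 1.81 in HFD hearts), 4 of 12 clock genes lower (1.22 to 1.37 and 1.1 to 1.23), and 4 of 5 red cell genes lower (3.20 to 3.98 and 2.41 to 2.82). Their part in these results was not tested.

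Of 32 PGC-1 and ERR target genes, 0 were higher and 1 was lower at an unadjusted p below 0.05, and the median log2 fold change was −0.05. A value below 0 was found for 27 of the 32, beside 14331 of the 27582 probes tested. This lean depended on the scaling, since the median was 0.008 with quantile normalization and 0.005 in the authors' log2 table. The 1 lower gene was *Cycs*, which encodes cytochrome c. It was at 8.44, 8.32 and 8.30 in the ND hearts and at 8.12, 8.22 and 7.97 in HFD hearts (change −0.25, SE 0.09, limma p of 0.0339, adjusted p = 0.384). *Ckmt2*, the mitochondrial creatine kinase of muscle, was at −0.24 (limma p of 0.0514, adjusted p = 0.425) and *Slc25a12*, the aspartate-glutamate carrier, at −0.14 (limma p of 0.0774, adjusted p = 0.476). *Uqcrc1*, *Cox7a1* and *Ndufb5*, subunits of complexes III, IV and I of the respiratory chain, were at −0.14, −0.16 and −0.13 (limma p of 0.137 to 0.156). Without HFD 2, the heart with the highest mean level of this list (7.89, against 7.70 to 7.85 in the others), 5 genes were lower and the median was −0.11.

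**Figure D5:**
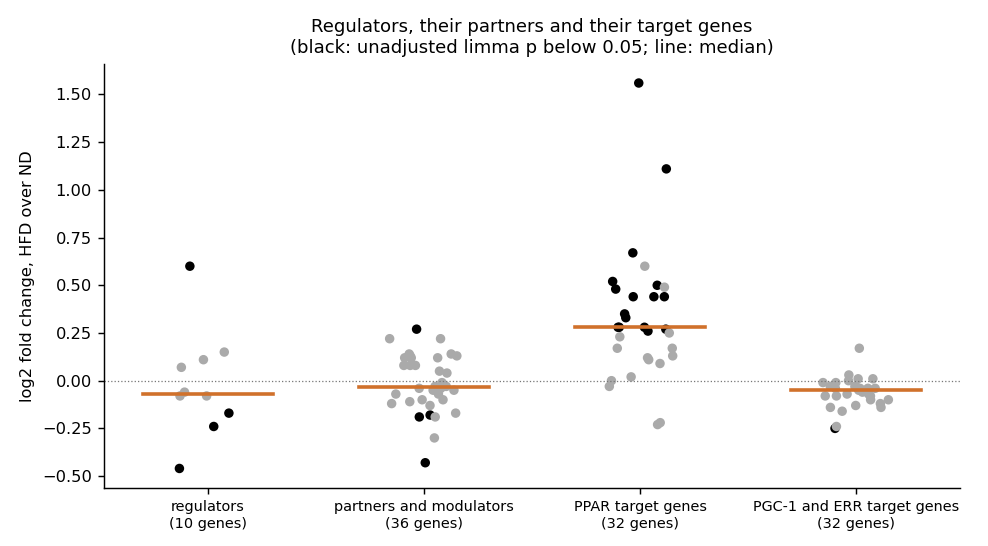
Log2 fold change of HFD over ND (y axis) of the 10 regulators, 36 partners and modulators, 32 PPAR target genes (31 drawn) and 32 PGC-1 and ERR target genes, 1 probe per gene. Black points have an unadjusted limma p below 0.05 and the orange line is the median of the whole list, at −0.07, −0.04, 0.28 and −0.05.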

How the data were processed

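RNA of 3 ND and 3 HFD hearts was hybridised to 6 one-colour (Cy3) Agilent mouse arrays. The deposited intensity of each spot (Agilent Feature Extraction 10.7 per the submitters' processing notes, 10.7.1.1 per the file headers) had been background-subtracted within its array by the authors' software and not normalized between arrays. The deposited mean and background intensities served only the normexp alternative. A table of log2 values deposited by the authors, whose normalization is not given in the sources used here, had the same median of 4.557 in each column. It followed a quantile normalization of the log2 intensities (largest median difference 0.001884) and served as an alternative. Probe positions are on mm9 as the files give them.

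Control spots and spots with an outlier flag were left out, spots of a probe were averaged, and the array's 75th percentile over spots other than controls (intensity 453 to 544) was subtracted on the log2 scale. An array had 49.2% to 52.9% of its probes well above background, and 3 hearts a diet limit the precision. Testing required a probe to be well above background in every heart of either diet and measured in 2 or more hearts per diet. The tests were made in limma 3.58.1 (R 4.3.3, lmFit, eBayes, two-sided, all 6 hearts, no covariates) with Benjamini-Hochberg adjustment over 27582 probes. The code was tested on simulated data. The R packages jsonlite 2.0.0, data.table (1.17.8) and statmod 1.5.0 were also used, and promoters and figures were made in Python 3.11.15 with pandas 2.3.3 and matplotlib 3.10.9.

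The members and the gene lists were chosen with earlier results of these data known. Named are all probes of the 10 regulators, the 6 genes with the lowest p of each list of partners and targets (1 of them is counted in its list but not reported here), and for each regulator at an unadjusted p below 0.05 the 3 genes most like it. Further genes are said to be named by family or after their values were seen. *Perm1*, *Adfp* and *2310076L09Rik* had no probe under these names, and *Fgf21* did not pass the filter. Alternatives were quantile and median scaling, normexp with an offset of 50, no filter and a stricter filter, array weights, the log2 table, an intensity trend (robust variances), the methods' t-test, a block by replicate number, the slide row as a term, outlier spots kept, the average of a gene's probes, and each heart left out in turn.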

Additional observations from a re-analysis of the deposited data

How the results depend on the processing

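Over 19 other settings, *Lpin1* A_55_P2083481 (log2 fold change −0.52 to −0.41, adjusted p 0.0535 to 0.566) and *Ppargc1b* (0.49 to 0.74, 0.119 to 0.642) kept an unadjusted limma p below 0.05 in all 19, *Lpin1* A_55_P2083474 in 18, and *Esrrb* and *Ppard* in 11 each. No regulator probe passed adjustment in any setting.

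Instead of the 4 reported, 2 regulator probes were lower at an unadjusted p below 0.05 with no filter on dim probes. The same number was found with the replicate number as a block. With a heart left out, 2 to 4 were lower (2 without ND 1, ND 2, HFD 1 or HFD 3). The block is no pairing of mice, since deviations of same-numbered hearts correlated at −0.154, 0.147 and 0.19. Over all probes, the 4 adjusted calls became 0 with the block or no filter, 1 with averaged probes, 2 in the authors' log2 table and 7 with median scaling. They became 8 in the methods' t-test, 10 with array weights, 40 with normexp and 81 with an intensity trend, and 0 to 5 with a heart left out. Probes lower numbered 1149 to 2050 with a heart left out, and with the row 842 were higher. With the slide row, which leaves HFD 3 alone against the ND hearts, the PGC-1 and ERR target median was −0.129. Adjusted PPAR targets numbered 1 with normexp and 3 with an intensity trend, and 0 to 1 with a heart left out, and 1 was lower in 6 settings and without HFD 2 or HFD 3. PGC-1 and ERR targets lower numbered 0 to 3, and 0 to 5 with a heart left out. Partners numbered 2 or 3 higher in several settings (1 to 2 with a heart left out) and 1 lower without the filter and with the block (1 to 4 with a heart left out).

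The sign of small changes turned. *Ppara* A_55_P2071601 was at 0.00 with normexp, −0.02 with median scaling, −0.03 with array weights and −0.07 as the gene's average (−0.07 to 0.06 with a heart left out). *Ppargc1a* A_51_P279038 was at −0.16 with array weights, −0.17 with the slide row and −0.04 as the average (−0.21 to 0.22), and A_55_P2011702 at −0.46 to 0.01 with a heart left out. *Rxra* was at 0.06 as the average (A_55_P2074331 −0.15 to 0.06, A_51_P307370 −0.06 to 0.27). Between probes, the difference for *Lpin1* was 0.00 with quantile normalization (−0.04 to 0.09) and 0.18 with normexp, and for *Rxra* −0.12 to 0.38. The cause was not tested. Another scaling moved the median of all probes by at most 0.027, but the PGC-1 and ERR target median turned to 0.008 with quantile normalization and 0.005 in the authors' log2 table.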

Other observations

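For each regulator at an unadjusted p below 0.05, the genes whose levels followed it most closely over the 6 hearts were looked up among the 25919 probes that were well above background in all 6 hearts, each centred on its own mean. The measure was the root mean square difference over the 6 hearts on the log2 scale. Nearest to *Lpin1* A_55_P2083481 were *Taf9b* (0.0346) and *Tuba8* (0.0400), a subunit of the basal transcription machinery and an α-tubulin, with log2 fold changes of −0.44 and −0.43, and a probe for a transcript with no gene name. Nearest to *Ppargc1b* were *Adra1b* (0.0698), the α1B adrenergic receptor, *Prox1* (0.0768), a homeobox transcription factor, and *Mllt3* (0.0893), with log2 fold changes of 0.55, 0.59 and 0.68. Nearest to *Esrrb* were *2610039C10Rik* (0.0162), *Serpini1* (0.0193) and *Hsd17b10* (0.0197), and nearest to *Ppard* were *Oxsm* (0.0128), a mitochondrial fatty acid synthase enzyme, *Zfp341* (0.0138) and the probe named NAP058998-1 (0.0150). The regulators were compared with so many probes that close matches would be found for almost any pattern, and no test was made.

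Among the clock genes, *Hlf* was at 1.41, 1.4 and 1.43 in the ND hearts and at 1.09, 0.94 and 1.04 in HFD hearts, a log2 fold change of −0.39 (SE 0.07). It encodes a transcription factor whose output follows the daily clock. *Tef*, of the same family, was at 5.69, 5.45 and 5.48 in the ND hearts and at 5.10, 5.21 and 5.16 in HFD hearts, a change of −0.38 (SE 0.09). *Nr1d1*, which encodes the nuclear receptor REV-ERBα, differed by −0.43 (SE 0.17) with no overlap between the diets. Of the other clock genes, *Dbp* was also lower at an unadjusted p below 0.05 (−0.34). Below 0 without reaching that threshold were *Per3* (−0.35), *Per2* (−0.25), *Nr1d2* (−0.18) and *Cry2* (−0.14), of which only *Cry2* had no overlap between the diets. *Arntl* (−0.01), *Clock* (0.10), *Per1* (0.15) and *Cry1* (0.36) were near 0 or above it, with overlap between the diets. In all, 9 of the 12 clock genes had a value below 0. *Cry1* and *Per3* were well above background on 5 of the 6 arrays. None of *Hlf*, *Tef* and *Nr1d1* passed adjustment in limma over all probes (adjusted p from 0.158 to 0.413), and the hour at which each heart was taken was not given in the sources used here.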
